A study of Bos taurus with 12 samples.

Results

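The expression of 8 secreted proteases of the ADAMTS family was followed in the bovine corpus luteum. These were ADAMTS1, ADAMTS2, ADAMTS4, ADAMTS5, ADAMTS9, ADAMTS10, ADAMTS12 and ADAMTS15. They were taken by gene name from tables of 27270 genes, and each of the 8 was found once. Whole corpora lutea of 12 mid-luteal phase (day 10) cows of mixed breed, 1 library per cow, were profiled by RNA sequencing. The study's methods describe non-lactating multiparous beef cows with synchronized estrous cycles. Control cows (C-4285, C-6464, C-7367 and C-7514) were injected with saline. Treated cows received an intramuscular luteolytic dose of prostaglandin F2α (PGF2α), the uterine signal that ends the life of the corpus luteum, and the ovary was removed 4 h later (cows 4H-4291, 4H-5341, 4H-6455 and 4H-6456) or 12 h later (cows 12H-5266, 12H-6314, 12H-7382 and 12H-7475). The labels do not give the time from saline to ovariectomy. The labels name no other treatment or genotype, and the tissue was not divided into cell types.

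ADAMTS proteases (a disintegrin and metalloproteinase with thrombospondin motifs) are zinc enzymes that are secreted as inactive precursors, activated by furin-like convertases, and held in the extracellular matrix through their thrombospondin repeats. ADAMTS1, ADAMTS4, ADAMTS5, ADAMTS9 and ADAMTS15 cleave the large proteoglycans versican and aggrecan. ADAMTS2 removes the amino-terminal propeptide of fibrillar procollagens, and its loss causes dermatosparaxis, a fragile skin disease of cattle. ADAMTS10 binds fibrillin microfibrils, and ADAMTS12 cleaves cartilage oligomeric matrix protein. In the rodent ovary ADAMTS1 is induced in granulosa cells before ovulation and cleaves the versican around the oocyte. The corpus luteum is dense in capillaries held in such a matrix, and loses both its steroid production and its vessels as it regresses.

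The deposited tables give 2 measures used here. The expected count estimates how many reads a gene received, and TPM is a relative level corrected for transcript length, so that it can be compared between genes. Total expected counts were 10263310 to 22600213 per library. Fold changes are from edgeR's quasi-likelihood test on counts scaled between libraries by TMM, with the Benjamini-Hochberg adjustment over the 14481 genes that had at least 10 counts in at least 4 libraries. A gene is said to have risen or fallen where the adjusted p was under 0.05. All 8 proteases passed the count minimum. Steroidogenic luteal cell markers, checked against the tissue label, summed to 30554 to 45856 TPM in controls, 28975 to 34040 TPM at 4 h and 14887 to 28115 TPM at 12 h. The lowest of these sums was in cow 12H-6314, which also had the highest summed pericyte and smooth muscle markers of the 12 libraries (5204 TPM) and, among 12 h cows, the lowest share of mitochondrially encoded counts (7.22%, with 12.4% to 14.2% in the other 12 h cows). Cow C-4285 held the smallest library and the highest summed fibroblast markers (20466 TPM), and cow 4H-6455 the highest summed pericyte and smooth muscle markers of the 4 h group (2002 TPM). Weighted by TPM, transcripts of the 12 h libraries averaged 1479 ± 69.7 bases and those of controls 1682 ± 41.9 bases (SD, n = 4 each). The median log2 fold change of all genes tested at 12 h was 0.01 in TMM-scaled counts and -0.25 on the log2(TPM + 1) scale. Over these genes limma on log2(TPM + 1) called 1509 higher and 5631 lower at 12 h, where edgeR called 3417 and 3665, and 1304 higher and 5194 lower from 4 h to 12 h, where edgeR called 3252 and 3512. With an offset for transcript length edgeR called 1107 higher and 1209 lower at 4 h, beside 1253 and 809 without it.

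At 4 h post-PGF2α, 2 of the 8 proteases rose, *ADAMTS1* and *ADAMTS5*. Among all genes tested, 8.65% rose and 5.59% fell at 4 h. None of the 8 fell, 0 had a negative change with an unadjusted p under 0.05, and DESeq2 called 0 lower. At 12 h 1 had risen (*ADAMTS10*) and 2 had fallen (*ADAMTS9* and *ADAMTS12*), with 23.6% of all genes higher and 25.3% lower. Between 4 h and 12 h, 4 fell (*ADAMTS1*, *ADAMTS5*, *ADAMTS9* and *ADAMTS12*) and 1 rose (*ADAMTS10*), with 22.5% of all genes higher and 24.3% lower at the later time. The median log2 fold change of the 8 was 0.47 at 4 h, 0.00 at 12 h and -0.85 from 4 h to 12 h, beside -0.03, 0.01 and 0.02 over all genes tested. The comparisons with control share the same 4 control cows. Without cow 4H-6455 and cow 12H-6314 the counts against control were 2 higher and 0 lower at 4 h and 1 higher and 2 lower at 12 h, while those from 4 h to 12 h were 1 higher and 6 lower. In whole tissue, fewer cells of a type and less RNA per cell cannot be told apart.

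**Figure D1:**
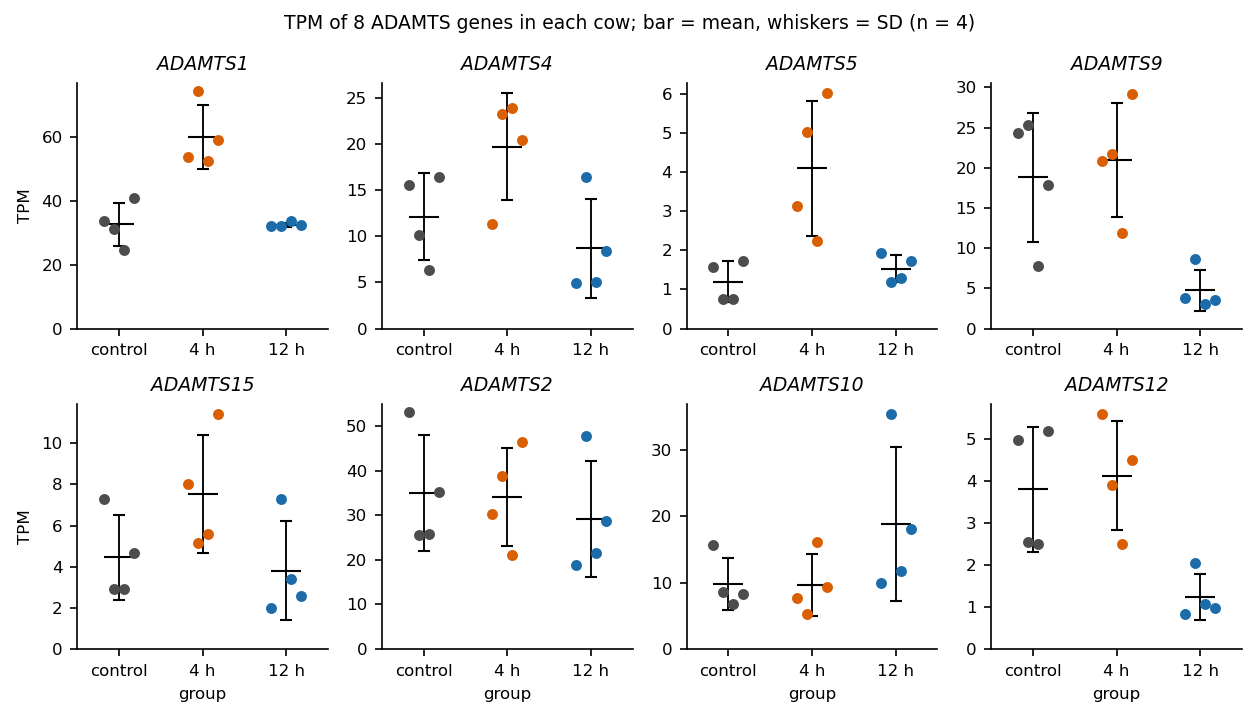
TPM of the 8 ADAMTS genes in each cow (y axis, from 0) by group (x axis), with the group mean as a bar and the SD as whiskers (n = 4 per group). *ADAMTS1* and *ADAMTS5* were higher in every 4 h cow than in any control cow, and *ADAMTS12* was lower in every 12 h cow than in any control cow. The share of all genes separated in these ways was not counted.

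*ADAMTS1*, the proteoglycanase of the ovulating follicle, lies on chromosome 1 at 9583345 to 9592271 (ARS-UCD1.2). In control cows it stood at 33.7, 31.0, 24.5 and 40.9 TPM. At 4 h the values were 53.7, 74.3, 52.5 and 58.8 TPM. At 12 h they were 32.0, 32.0, 33.5 and 32.3 TPM. All 4 h cows were thus above all control cows and all 12 h cows, and the 12 h cows lay within the range of the controls. The ratio of mean TPM at 4 h to control was 1.84 (exact two-sided permutation test, p = 0.0286, the smallest that 4 cows against 4 can give). In scaled counts *ADAMTS1* rose at 4 h (log2 fold change 0.92, SE 0.15, adjusted p = 0.00173) and fell from 4 h to 12 h (-0.60, SE 0.15, adjusted p = 0.00524). Against control, the 12 h value was 0.32 (SE 0.15, adjusted p = 0.0920), while the TPM ratio was 0.997. That 12 h difference was called with an offset for transcript length (0.54, adjusted p = 0.00909; 0.00909 to 0.929 over the 10 alternatives of processing) and without control cow C-7514 (0.47), 4 h cow 4H-5341 (0.35) or 12 h cow 12H-6314 (0.42), and the fall from 4 h was lost with the offset (-0.29, adjusted p = 0.119).

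*ADAMTS5*, with ADAMTS4 one of the main aggrecanases of cartilage, is the neighbour of *ADAMTS1* on chromosome 1, at 9440973 to 9491324, and 92.0 kb separate the pair with no other listed gene between them. It was the least abundant of the 8 in controls, at 1.57, 0.75, 0.76 and 1.73 TPM. At 4 h it reached 3.13, 5.04, 2.24 and 6.02 TPM, and at 12 h it was at 1.94, 1.18, 1.3 and 1.72 TPM. In TPM every 4 h cow was above every control cow and every 12 h cow, and the ratio of mean TPM to control was 3.42 (exact two-sided permutation test, p = 0.0286). In scaled counts the 4 h and 12 h groups overlapped, with cow 12H-5266 (5.34 CPM) above cow 4H-6455 (5.17 CPM). Its rise at 4 h (log2 fold change 1.82, SE 0.37, adjusted p = 0.00667) was the largest change among the 8 in either direction at that time. These values rest on 31 to 84 counts in controls, 89 to 229 at 4 h and 49 to 82 at 12 h. Against control, the 12 h value was 0.70 (SE 0.37, adjusted p = 0.134), and 1 cow (12H-5266) exceeded all controls in TPM. The fall from 4 h to 12 h (-1.11, SE 0.36, adjusted p = 0.0217) was not called with the length offset (-0.89, adjusted p = 0.0559; 0.00603 to 0.0559 over the 10 alternatives), nor without cow 4H-5341 (-0.97), cow 4H-6456 (-0.87), cow 12H-6314 (-0.93) or cow 12H-7382 (-1.07). The highest *ADAMTS1* value was in cow 4H-5341 and the highest *ADAMTS5* value in cow 4H-6456, while cow 4H-6455 had the lowest value of both among the 4 h cows.

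*ADAMTS4*, the other main cartilage aggrecanase, lies on chromosome 3 at 8303389 to 8311838. In controls it was at 15.6, 10.2, 6.35 and 16.4 TPM. At 4 h it was at 11.3 TPM in cow 4H-4291 and at 20.5, 23.2 and 23.9 TPM in the other cows, each of these above every control. At 12 h it was at 4.89, 5.09 and 8.42 TPM in 3 cows and at 16.4 TPM in cow 12H-6314. The groups overlapped in every comparison. Neither the 4 h value (log2 fold change 0.76, SE 0.37, adjusted p = 0.194) nor the 12 h value (-0.20, SE 0.37, adjusted p = 0.676) passed the test. From 4 h to 12 h it was -0.96 (SE 0.37) with an adjusted p of 0.0502, just short of the call. Of the 10 alternatives of processing, 7 called this difference, with an adjusted p of 0.0190 to 0.124 over the 10. It was not called with the length offset (-0.71), with only the 2 groups compared (-0.95) or without mitochondrially encoded genes (-0.94). With single cows left out it was called without cow 12H-6314 (-1.34, adjusted p = 0.0095), cow 4H-4291 (-1.15) or cow C-7367 (-0.96).

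*ADAMTS9*, a versican-cleaving protease, lies on chromosome 22 at 36760610 to 36922968. In controls it was at 24.3, 25.3, 7.83 and 17.9 TPM, and at 4 h at 20.9, 21.8, 11.9 and 29.2 TPM. At 12 h it was at 3.77, 3.04 and 3.59 TPM in 3 cows and at 8.59 TPM in cow 12H-6314. Cow 12H-6314 was above the lowest control cow (C-7367), and the other 12 h cows were below all controls and all 4 h cows. The ratio of mean TPM at 12 h to control was 0.252 (exact two-sided permutation test, p = 0.0571). In scaled counts *ADAMTS9* fell at 12 h (log2 fold change -1.71, SE 0.37, adjusted p = 0.00245) and from 4 h to 12 h (-1.89, SE 0.37, adjusted p = 0.00144). Its 4 h value was 0.18 (SE 0.36, adjusted p = 0.777). Both falls were called under all 10 alternatives of processing and with each of the 12 cows left out. The 12 h change ranged from -2.07 to -1.39 over the 10 alternatives and from -2.01 to -1.48 over the cows left out.

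*ADAMTS15*, the remaining versican-cleaving member, lies on chromosome 29 at 36560407 to 36584912, 26.2 kb from *ADAMTS8*, which had at most 13 counts in any library. In controls *ADAMTS15* was at 7.28, 2.92, 2.92 and 4.69 TPM. At 4 h it was at 8.01, 5.17, 5.60 and 11.4 TPM, and at 12 h at 1.99, 7.30, 3.39 and 2.59 TPM. The groups overlapped, with cow 12H-6314 again the highest of the 12 h group. Its log2 fold changes were 0.81 at 4 h (SE 0.37, adjusted p = 0.168), 0.07 at 12 h (SE 0.37, adjusted p = 0.896) and -0.74 from 4 h to 12 h (SE 0.37, adjusted p = 0.117), none of which passed the test. The last of these was called by 3 of the 10 alternatives, whose adjusted p was 0.0164 to 0.374. These were both limma fits (-0.89 with a pseudocount of 1 and -1.07 with 0.1) and the fit without cows 4H-6455 and 12H-6314 (-1.27). It was also called without cow 12H-6314 alone (-1.13, adjusted p = 0.0187).

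*ADAMTS2*, the procollagen N-proteinase, lies on chromosome 7 at 2015432 to 2260856 and was the only member with 4 transcripts in the tables. It was at 53.2, 25.6, 25.8 and 35.1 TPM in controls, 30.2, 38.7, 21.1 and 46.5 TPM at 4 h and 18.8, 47.6, 21.6 and 28.6 TPM at 12 h. The spread within each group was wider than any difference between group means. The log2 fold changes were -0.01 at 4 h (SE 0.27, adjusted p = 0.983) and -0.06 at 12 h (SE 0.27, adjusted p = 0.877). Both of its relatives with the same kind of substrate were called in at least 1 comparison. *ADAMTS14*, a procollagen N-proteinase of low abundance here (0.965 ± 0.372 TPM in controls, SD, n = 4), rose at 4 h (log2 fold change 1.83, SE 0.41, adjusted p = 0.0122) and at 12 h (1.85, SE 0.41, adjusted p = 0.00281). *ADAMTS3*, which also processes the lymphatic growth factor VEGFC, was at 8.73 ± 1.80 TPM in controls, and fell at 12 h (-0.61, SE 0.17, adjusted p = 0.0108) but was not called with the length offset (-0.35, adjusted p = 0.0745, the highest of 3 alternatives run for it, the lowest being 0.00261). Whether the response of *ADAMTS2* differed from that of these relatives was not tested.

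*ADAMTS10*, whose loss in humans causes Weill-Marchesani syndrome, lies on chromosome 7 at 17159713 to 17179480. In controls it was at 15.7, 8.57, 6.79 and 8.37 TPM, and at 4 h at 7.74, 5.26, 16.1 and 9.35 TPM. At 12 h it was at 9.98, 35.5, 11.8 and 18.2 TPM. Cow 12H-6314 and cow 12H-7475 were above all control cows, and the others lay inside the control range. The ratio of mean TPM at 12 h to control was 1.91 (exact two-sided permutation test, p = 0.171). In scaled counts it rose at 12 h (log2 fold change 1.22, SE 0.40, adjusted p = 0.0252) and from 4 h to 12 h (1.18, SE 0.40, adjusted p = 0.0298), with 0.04 (SE 0.40, adjusted p = 0.962) at 4 h. The 12 h rise was not called by limma on log2(TPM + 1) (0.77, adjusted p = 0.116; 0.00608 to 0.116 over the 10 alternatives). It was also not called without cow 12H-6314 (0.86, adjusted p = 0.0798), cow 12H-7475 (1.18, adjusted p = 0.0539), cow C-6464 (1.2, adjusted p = 0.0510), cow C-7367 (1.09, adjusted p = 0.0683) or cow C-7514 (1.17, adjusted p = 0.0594). The rise from 4 h to 12 h, with an adjusted p of 0.00942 to 0.0962 over the 10 alternatives, was not called without cow 12H-6314 (0.81, adjusted p = 0.0994), cow 12H-7475 (1.14), cow 4H-4291 (1.08), cow 4H-5341 (0.99) or cow 4H-6456 (1.16).

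*ADAMTS12* lies on chromosome 20 at 39873127 to 40265889 and has 2 transcripts in the tables. It was at 4.98, 2.54, 2.5 and 5.20 TPM in controls and 5.60, 3.91, 2.5 and 4.51 TPM at 4 h. At 12 h it was at 0.84, 2.04, 1.07 and 0.99 TPM, below every control cow and every 4 h cow. The ratio of mean TPM at 12 h to control was 0.325 (exact two-sided permutation test, p = 0.0286). In scaled counts it fell at 12 h (log2 fold change -1.35, SE 0.31, adjusted p = 0.00304) and from 4 h to 12 h (-1.51, SE 0.31, adjusted p = 0.00168), with 0.16 (SE 0.29, adjusted p = 0.767) at 4 h. The 12 h libraries held 60 to 166 of its counts. Both falls were called under all 10 alternatives and with each cow left out, the 12 h change ranging from -1.58 to -1.13. *ADAMTS7*, its closest relative and likewise a protease of cartilage oligomeric matrix protein, rose at 12 h in the same fit (0.70, SE 0.20, adjusted p = 0.0107), though not by limma on log2(TPM + 1) (0.35, adjusted p = 0.218, with 0.000978 the lowest of 3 alternatives run for it).

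**Figure D2:**
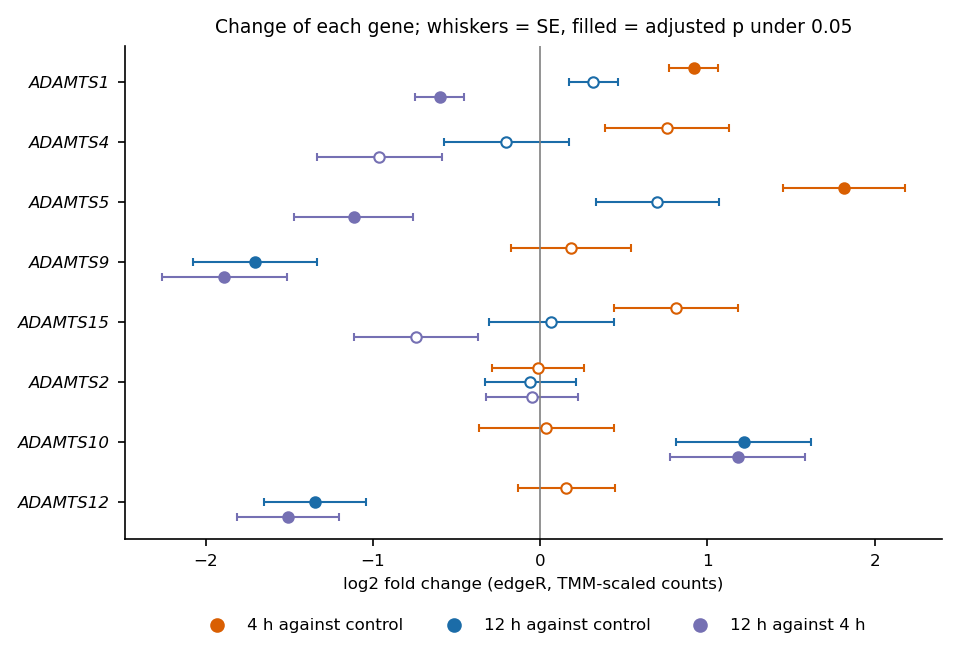
Log2 fold change of each ADAMTS gene (x axis, TMM-scaled counts) for 4 h against control, 12 h against control and 12 h against 4 h, with SE whiskers and filled points where the adjusted p was under 0.05. *ADAMTS1* and *ADAMTS5* are filled on the right at 4 h and on the left for 12 h against 4 h, and *ADAMTS9* and *ADAMTS12* are filled on the left in both comparisons of the 12 h cows.

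The order of abundance changed with time. On the TPM scale of group means, *ADAMTS2* (34.9 ± 12.9) and *ADAMTS1* (32.5 ± 6.80) led in controls, followed by *ADAMTS9* (18.8 ± 8.04), *ADAMTS4* (12.1 ± 4.74), *ADAMTS10* (9.85 ± 3.95), *ADAMTS15* (4.45 ± 2.06), *ADAMTS12* (3.81 ± 1.49) and *ADAMTS5* (1.2 ± 0.521; SD, n = 4 each). The ranges over cows of all neighbours in this order overlapped, except that *ADAMTS12* was above *ADAMTS5* in all cows. At 4 h *ADAMTS1* (59.8 ± 10.0) stood above *ADAMTS2* (34.1 ± 10.9) without overlap, and every later neighbour overlapped, down to *ADAMTS12* (4.13 ± 1.29) and *ADAMTS5* (4.11 ± 1.73), which were close. At 12 h *ADAMTS1* (32.4 ± 0.716) and *ADAMTS2* (29.2 ± 13.0) were followed by *ADAMTS10* (18.9 ± 11.6), *ADAMTS4* (8.71 ± 5.39) and *ADAMTS9* (4.75 ± 2.58). *ADAMTS15* (3.82 ± 2.39) was above *ADAMTS5* (1.53 ± 0.356) without overlap, and *ADAMTS12* (1.24 ± 0.545) was last.

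The 8 genes together summed to 118 ± 33.5 TPM in controls, 160 ± 25.5 TPM at 4 h and 100.5 ± 34.7 TPM at 12 h (SD, n = 4 each), with overlapping ranges. They held most of the family's TPM. Of the summed TPM of the 19 ADAMTS genes found, their share was 72.5% ± 5.01 in controls, 77.6% ± 1.70 at 4 h and 70.9% ± 1.98 at 12 h. Within the 8, *ADAMTS9* took 15.8% (10.1% to 23.7%) of the sum in controls, 12.9% (8.76% to 15.7%) at 4 h and 4.57% (3.73% to 5.70%) at 12 h. *ADAMTS10* took 8.31% (6.42% to 10.0%), 6.34% (2.97% to 11.9%) and 17.6% (13.5% to 23.6%). As parts of the 8, then, both had 12 h ranges apart from those of the other groups, whereas their TPM ranges at 12 h overlapped those of controls. These shares are a description of a whole whose parts depend on each other, and they were not tested.

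**Figure D3:**
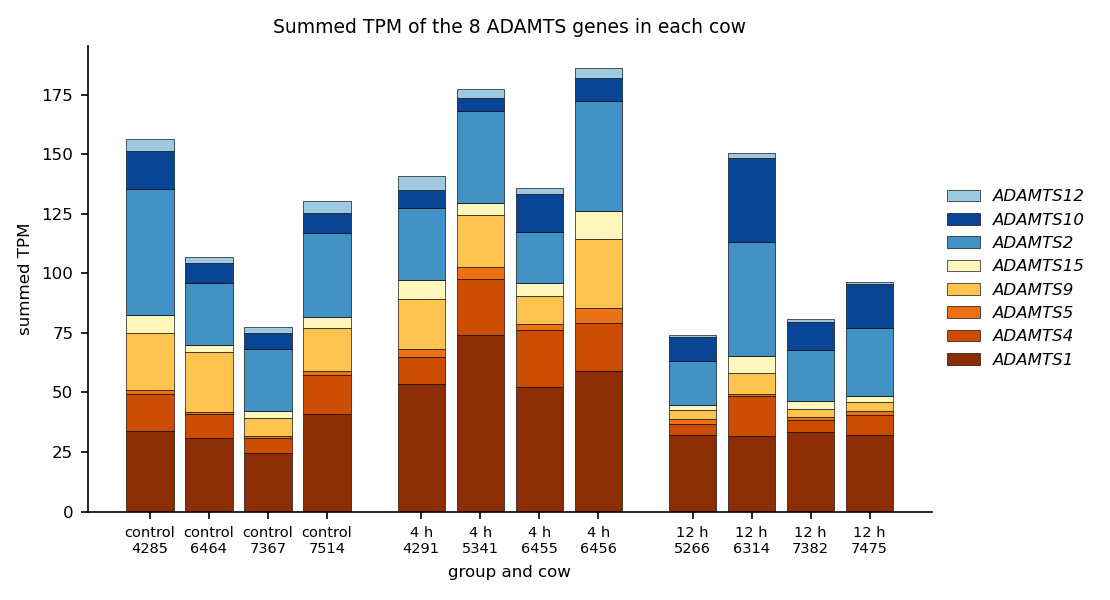
Summed TPM of the 8 ADAMTS genes in each cow (y axis, from 0), split by gene. The sum was 136 to 186 TPM in the 4 h cows, and in the 12 h group it was 151 TPM in cow 12H-6314 and 74.2 to 96.4 TPM in the other cows.

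The order of the cows within a group was set against the summed TPM of 9 lists of cell markers. Each group of 4 cows gives 6 pairs, hence 18 pairs over the 3 groups, and 72 combinations of protease and list were counted. *ADAMTS2* and the fibroblast markers put the cows in the same order in all 18 pairs, which 0.145% of the 14481 genes did. That sum was made up mostly of the fibrillar collagens that ADAMTS2 processes. By mean log2 CPM of the 10 markers, the match was lost at 4 h and for 1 pair of controls. That pair was cow C-6464 (8.10, 25.65 TPM of *ADAMTS2*) and cow C-7367 (7.82, 25.83 TPM). The 4 h cows then stood in the reverse order, from 8.56 in cow 4H-6456 (46.5 TPM of *ADAMTS2*) to 8.88 in cow 4H-6455 (21.1 TPM). A single marker can move such a mean: *PI16* ranged from 0.35 to 130 TPM among the 4 h cows. The part of *PI16* in this order was not tested. *ADAMTS10* and the pericyte and smooth muscle markers shared an order in 17 of 18 pairs, which 0.808% of genes reached or passed, and the cow with the most *ADAMTS10* in each group (C-4285, 4H-6455 and 12H-6314) was the one with the most of these markers. The marker sums were 687 to 2107 TPM in controls, 868 to 2002 TPM at 4 h and 931 to 5204 TPM at 12 h, with none of the 10 markers at 0. At 12 h 2 of the 10 rose and 1 fell (1 rose and 2 fell without cows 4H-6455 and 12H-6314), beside 23.6% and 25.3% of all genes. *ADAMTS9* and the lymphocyte markers shared an order in 16 pairs, which 1.15% of genes reached or passed. The lymphocyte sums at 12 h were close together (50 to 58.1 TPM). By mean log2 CPM of these markers, cow 12H-6314, which had the most *ADAMTS9* at 12 h, was the lowest of that group (1.54). *ADAMTS15* and *ADAMTS2* each shared the order of the endothelial markers in 15 pairs, which 7.58% of genes reached or passed. *ADAMTS4* shared that of the pericyte and smooth muscle markers in 15, a number that 6.11% of genes reached or passed. For *ADAMTS1*, *ADAMTS5* and *ADAMTS12* no list passed 14 pairs. Both sides of each count come from the same 12 libraries. The part of the marker levels in the changes of these genes was not tested.

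**Figure D4:**
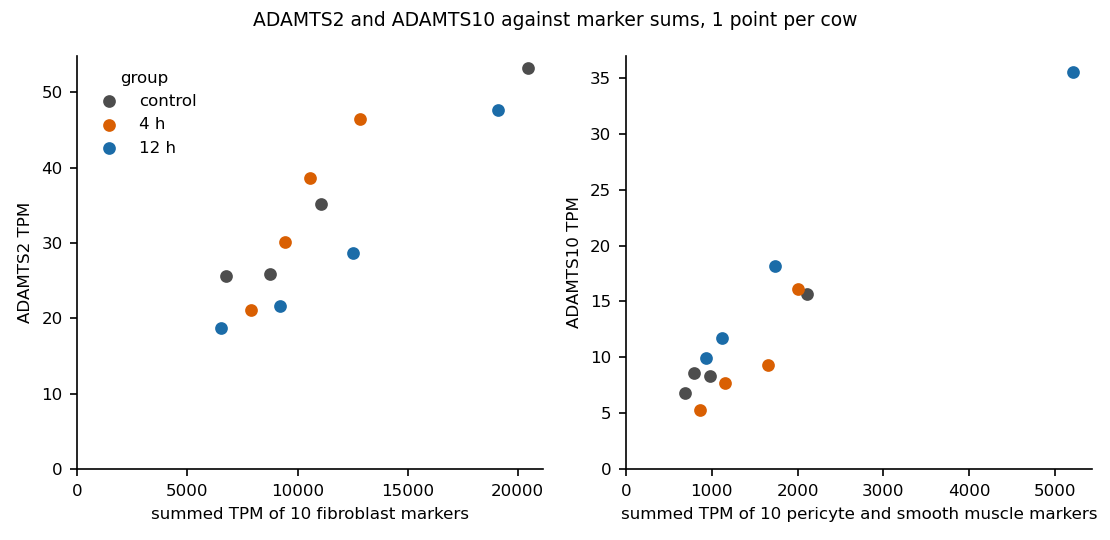
Left, *ADAMTS2* TPM (y axis) against the summed TPM of 10 fibroblast markers (x axis). Right, *ADAMTS10* TPM against the summed TPM of 10 pericyte and smooth muscle markers, 1 point per cow coloured by group, with cow 12H-6314 at the upper right (35.5 and 5204 TPM).

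Markers of other cell types were counted in the same way. Among all genes tested, 8.65% rose and 5.59% fell at 4 h, and 23.6% rose and 25.3% fell at 12 h. Some of the counts below, such as 3 of 12 endothelial markers higher at 12 h, were near these shares. Of the 12 macrophage markers, 9 rose at 12 h, and their sums were 205 to 562 TPM in controls, 250 to 480 TPM at 4 h and 501 to 803 TPM at 12 h. Of the 8 neutrophil markers tested 5 rose at 12 h, with sums of 31.7 to 70.5 TPM in controls, 60.5 to 167 TPM at 4 h and 112 to 281 TPM at 12 h. Of the 10 fibroblast markers 5 rose at 12 h, but the sums overlapped (6762 to 20466 TPM in controls and 6538 to 19117 TPM at 12 h), and 2 rose without cows 4H-6455 and 12H-6314 and 1 by limma on log2(TPM + 1). Of the 12 endothelial markers 3 rose and 1 fell at 12 h, with sums of 545 to 839 TPM in controls and 464 to 945 TPM at 12 h; without cows 4H-6455 and 12H-6314 1 rose and 1 fell, and by limma on log2(TPM + 1) 0 rose and 1 fell. Of the 10 luteal markers 7 fell at 12 h. At 4 h, when *ADAMTS1* and *ADAMTS5* rose, 1 of the 12 macrophage, 1 of the 8 neutrophil (*S100A9*, log2 fold change 2.73, adjusted p = 0.00505), 1 of the 10 fibroblast and 2 of the 10 pericyte and smooth muscle markers rose and 1 of the 10 luteal markers fell, while 2 endothelial markers rose and 2 fell. Of the 11 lymphocyte markers tested 2 fell at 4 h and 1 rose at 12 h, with sums of 34.2 to 134 TPM, 26.6 to 40.0 TPM and 50 to 58.1 TPM in the 3 groups. Of the 6 follicular markers tested 1 rose and 2 fell at 4 h and 2 rose and 2 fell at 12 h. The 1 erythrocyte marker tested rose at 12 h, and the erythrocyte sums were at most 11.2 TPM. Among defining markers, *MPO* (neutrophil) and *CYP17A1* (theca) were at 0 in every control and 4 h cow, and *SLC4A1* (erythrocyte) in every 12 h cow. The part of these levels in the changes of the proteases was not tested.

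Among the 11 other ADAMTS genes, 7 passed the count minimum. The counts below stand beside 8.65% of all genes higher and 5.59% lower at 4 h, and 23.6% higher and 25.3% lower at 12 h. *ADAMTS14* rose at 4 h and no other was called, with 1 of the 7 lower at an unadjusted p under 0.05 and 0 called lower by DESeq2. At 12 h *ADAMTS14* and *ADAMTS7* rose, and *ADAMTS3*, *ADAMTS17* (log2 fold change -1.21, SE 0.22, adjusted p = 0.000702) and *ADAMTS20* (-1.66, SE 0.56, adjusted p = 0.0273) fell. ADAMTS17 is, like ADAMTS10, tied to fibrillin microfibrils and to Weill-Marchesani syndrome in humans, and ADAMTS20 cleaves versican. *ADAMTS17* was at 8.99 ± 0.506 TPM in controls and 3.10 ± 0.801 TPM at 12 h (SD, n = 4 each). The 7 ADAMTS-like genes, which keep the thrombospondin repeats but lack the protease domain, had no call at 4 h (by edgeR or DESeq2, with 1 higher and 0 lower at an unadjusted p under 0.05). At 12 h *ADAMTSL5* rose (1.77, SE 0.29, adjusted p = 0.000402) and *ADAMTSL3* fell (-0.98, SE 0.24, adjusted p = 0.00493).

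Inhibitors, activators and clearance receptors of the proteases formed a list of 14, of which 13 were found and tested. TIMP3, the main tissue inhibitor of the aggrecanases, was at 119 ± 17.5 TPM in controls, 341 ± 67.5 TPM at 4 h and 136 ± 19.3 TPM at 12 h (SD, n = 4 each). It rose at 4 h (log2 fold change 1.55, SE 0.18, adjusted p = 0.000249) and fell from 4 h to 12 h (-1.04, SE 0.18, adjusted p = 0.000632), the same directions as *ADAMTS1* and *ADAMTS5*. It remained above control at 12 h in this fit (0.51, SE 0.18, adjusted p = 0.0338), but not by limma on log2(TPM + 1) (0.19, adjusted p = 0.337) or with the length offset (0.43, adjusted p = 0.0628), and the third alternative run for it gave an adjusted p of 0.0292. *MMP17*, a membrane protease that can process ADAMTS4, was at 0.200 ± 0.116 TPM in controls, and rose at 4 h (3.41, SE 0.47, adjusted p = 0.00064) and at 12 h (4.83, SE 0.47, adjusted p = 1.52e-05). *FURIN*, the convertase that activates many of these precursors, rose at 4 h by 0.36 (SE 0.10, adjusted p = 0.0361). *A2M*, a plasma protease trap, rose at 12 h (1.65, SE 0.29, adjusted p = 0.000549). The convertases *PCSK5* (-1.45, SE 0.22, adjusted p = 0.000242) and *PCSK7* (-0.48, SE 0.10, adjusted p = 0.00143) and *LRP1* (-0.72, SE 0.21, adjusted p = 0.0142), the endocytic receptor that clears ADAMTS4 and ADAMTS5, fell at 12 h. The median over the 13 was 0.24 at 4 h and -0.06 at 12 h, and none was called lower at 4 h (1 at an unadjusted p under 0.05, 0 by DESeq2). At 4 h 3 of the 13 rose, beside 8.65% of all genes. At 12 h 3 rose and 3 fell, near the 23.6% and 25.3% of all genes.

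A list of 22 known substrates of ADAMTS proteases was not limited to substrates of the 8 members. Of the 22, 18 were tested, 5 rose at 4 h and 8 at 12 h. None fell in either comparison (0 lower by DESeq2, and 0 at an unadjusted p under 0.05). Among all genes tested, 8.65% rose at 4 h and 23.6% at 12 h. Without cows 4H-6455 and 12H-6314, 5 of the 18 rose at 12 h, beside 3262 of 14294 genes. By limma on log2(TPM + 1) 5 rose at 12 h, beside 1509 of 14481 genes. The rises at 4 h included *SDC4* (2.74, SE 0.26, adjusted p = 4.78e-05), a cell surface proteoglycan, *TFPI2* (2.26, SE 0.25, adjusted p = 0.000138), a matrix inhibitor of serine proteases, and *THBS2* (1.81, SE 0.31, adjusted p = 0.00258), an anti-angiogenic thrombospondin. The other genes that rose at 4 h, *FBN2* and *NID2*, fall outside the naming rule and were named after their values were seen. *COMP*, the substrate of ADAMTS7 and ADAMTS12, rose at 12 h (3.61, SE 0.54, adjusted p = 0.000209) from a low level of 0.292 ± 0.0806 TPM in controls to 2.78 ± 1.49 TPM (SD, n = 4 each). Versican (*VCAN*), shared by the proteoglycanases, was at 51.9 ± 18.1 TPM in controls, 55.1 ± 19.3 TPM at 4 h and 66.3 ± 38.5 TPM at 12 h, with log2 fold changes of 0.10 (SE 0.35, adjusted p = 0.878) and 0.07 (SE 0.35, adjusted p = 0.887). Aggrecan (*ACAN*), the cartilage substrate, did not reach the count minimum and had a mean TPM of at most 0.108 in any group. The median log2 fold change of the 18 was 0.27 at 4 h and 0.60 at 12 h, and 4 of them are also fibroblast markers and 1 is an endothelial marker.

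**Figure D5:**
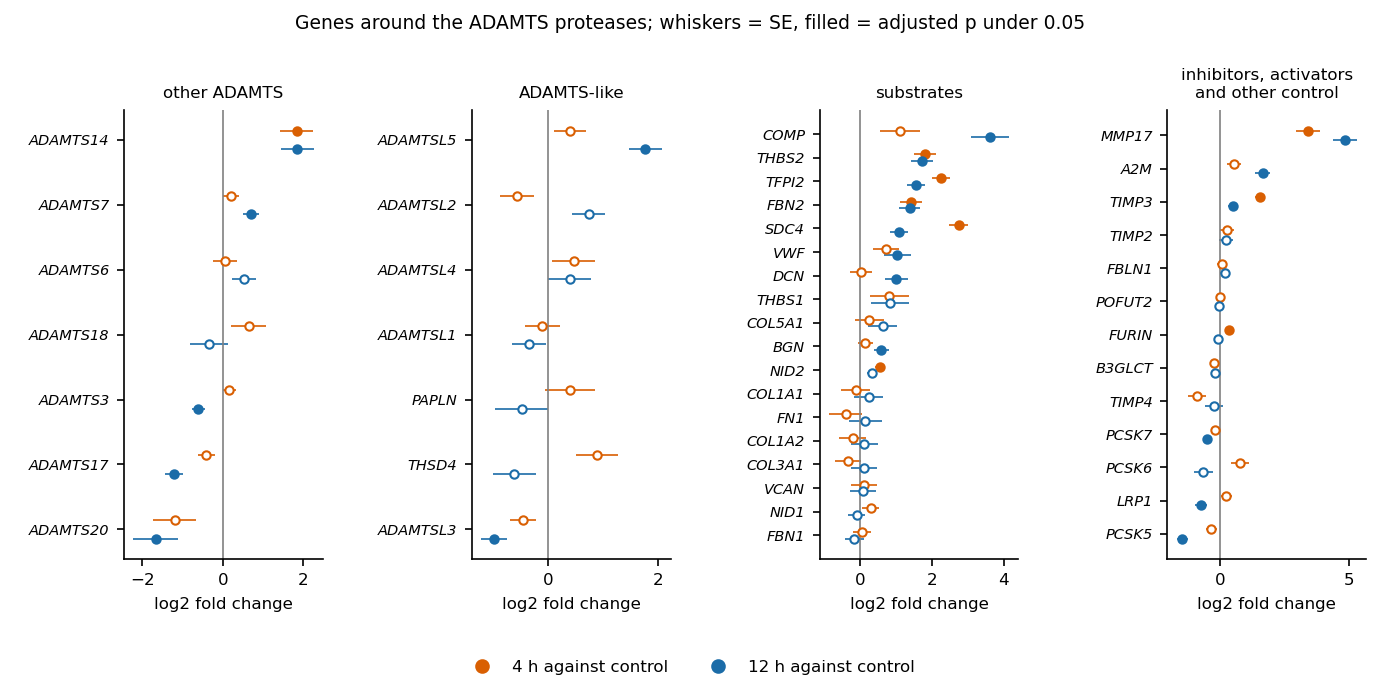
Log2 fold change against control (x axes, TMM-scaled counts) at 4 h and 12 h of the tested genes in 4 lists around the proteases, with SE whiskers and filled points where the adjusted p was under 0.05. *TIMP3*, *SDC4* and *TFPI2* lie further right at 4 h than at 12 h, and *PCSK5*, *LRP1*, *ADAMTS17* and *ADAMTS3* are filled on the left at 12 h.

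The membrane-anchored relatives and the matrix metalloproteinases gave other counts. Of 9 ADAM genes tested none was called at 4 h by edgeR (2 higher and 0 lower at an unadjusted p under 0.05, and 1 higher and 0 lower by DESeq2). At 12 h *ADAM19* (-1.92, SE 0.23, adjusted p = 4.46e-05) and *ADAM17*, which sheds tumour necrosis factor (-0.93, SE 0.18, adjusted p = 0.00107), fell. *ADAM23* rose (3.0, SE 0.80, adjusted p = 0.00795), but from near 0, at 0.0575 ± 0.0695 TPM in controls and 0.36 ± 0.0818 TPM at 12 h (SD, n = 4 each). Of 12 matrix metalloproteinases 5 rose at 4 h, and at 12 h 7 rose and 1 fell. Over all genes tested, the shares were 8.65% higher and 5.59% lower at 4 h, and 23.6% higher and 25.3% lower at 12 h. The ADAM counts at 12 h, 1 higher and 2 lower of 9, did not exceed these shares. The interstitial collagenase *MMP1* rose at 4 h (5.68, SE 0.67, adjusted p = 0.000235) and at 12 h (5.93, SE 0.67, adjusted p = 3.25e-05). Its control level was also near 0 (0.13 ± 0.0519 TPM), with 6.94 ± 3.84 TPM at 4 h and 6.62 ± 3.93 TPM at 12 h (SD, n = 4 each). The macrophage elastase *MMP12* went from 0.525 ± 0.357 TPM in controls to 17.4 ± 9.80 TPM at 4 h and 23.9 ± 4.57 TPM at 12 h (SD, n = 4 each). In scaled counts these were changes of 4.98 (SE 0.47, adjusted p = 4.91e-05) and 5.70 (SE 0.47, adjusted p = 6.79e-06). The largest rise among the 8 ADAMTS genes, that of *ADAMTS5* at 4 h, was 1.82.

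For each of the 8, the genes with the most similar pattern were taken from 10419 named genes with a mean of at least 5 CPM. Likeness is the mean absolute difference, over the 12 cows, of log2 CPM expressed as deviation from the control mean, so smaller is closer. For *ADAMTS1* the closest were *MCL1* (0.113), a survival member of the BCL2 family, *ABL1* (0.121) and *STK40* (0.122). For *ADAMTS2* they were the matrix genes *FBN1* (0.121), *COL5A2* (0.128) and *VCAN* (0.152). *ADAMTS5* was closest to *SULF1* (0.343), a heparan sulfate endosulfatase, *DUSP1* (0.355), a phosphatase of MAP kinases, and *FAM43A* (0.356). Among the closest to *ADAMTS4* were *CYP1B1* (0.30) and *VCL* (0.319). *ADAMTS9* lay closest to *ITPKB* (0.301), *ZC3HAV1L* (0.321) and *MTMR12* (0.328). *ADAMTS10* lay closest to *PYCR1* (0.228), an enzyme of proline synthesis, *WFDC1* (0.235) and *CCN1* (0.239), a matricellular protein. *ADAMTS12* lay closest to *LUZP1* (0.208), *TOP2A* (0.222), the topoisomerase of dividing cells, and *YAP1* (0.230), a transcriptional coactivator of the Hippo pathway. *ADAMTS15* lay closest to *ZNF516* (0.251), *ANGPT2* (0.251), a regulator of vessel stability, and *CRIM1* (0.261). The distances of *ADAMTS1* and *ADAMTS2* to their nearest genes were smaller than those of the other members. This distance depends on how much a gene varies between cows, so it cannot rank the members by closeness of pattern.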

How the data were processed

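RNA of whole corpora lutea from 12 cows (4 per group by GEO's labels, 1 library each) was sequenced. Per the submitters' processing notes, the authors used STAR 2.5, RSEM 1.3 and the ARS-UCD1.2 genome. The authors deposited per gene an expected count (an estimate by RSEM, so it may hold decimals), a TPM and an FPKM, the last 2 normalized for transcript length. Whether counting used strand is not given in the sources used here. No member overlaps another gene in the tables. Expected counts were rounded, scaled by TMM and fitted with edgeR 4.0.16 (quasi-likelihood, all groups in 1 fit, no covariate). A gene was kept when at least 4 libraries held 10 or more of its counts, and p-values were adjusted by Benjamini-Hochberg over all of them within each comparison, with a threshold of 0.05. The study names DESeq2 for its comparison of transcript levels, and it was run here as an alternative (version 1.42.0). Mean TPM was compared by exact two-sided permutation tests, with a smallest p of 0.0286. The SEs include counting error and the spread between cows.

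Alternatives were DESeq2, RLE scaling, no count minimum, a minimum of 50, only the 2 groups compared, limma 3.58.1 on log2(TPM + 1) and log2(TPM + 0.1), a per-library offset by transcript length (spline with 5 degrees of freedom), no mitochondrially encoded genes, leaving out cows 4H-6455 and 12H-6314 together, and each cow left out in turn. Ratios of medians and of FPKM were also computed. The fits were tested on simulated data. The members and all gene lists were chosen with earlier results of these data known. Named genes were the 8 members, the called genes of the other ADAMTS and control lists, up to 4 called genes of each other list of matrix genes by smallest p, the 3 nearest patterns of each member (log2 CPM, prior count 2), and TIMP3, VCAN and ADAMTS3. TIMP1 was not analysed here, and not every gene selected in this way is reported. The comparison of cow order with marker sums was added after the values were seen. Python 3.11.15 (numpy 2.4.6, pandas 2.3.3, matplotlib 3.10.9) and R 4.3.3 were used.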

Additional observations from a re-analysis of the deposited data

Results flagged for a closer look

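In the 24 groups of 4 cows formed by the 8 ADAMTS genes, 1 had a cow far from the others by Dixon's criterion, and chance gives about 1 in 20. It was *ADAMTS9* at 12 h, at 8.59 TPM in cow 12H-6314 and 3.04 to 3.77 TPM in the other cows. The other 5 results were genes that differed between the 2 times by a direct test of the difference in edgeR. From 4 h to 12 h the log2 fold change was -0.60 for *ADAMTS1*, -1.11 for *ADAMTS5*, -1.89 for *ADAMTS9* and -1.51 for *ADAMTS12*, and 1.18 for *ADAMTS10*, with adjusted p-values of 0.00524, 0.0217, 0.00144, 0.00168 and 0.0298. For *ADAMTS1*, *ADAMTS5*, *ADAMTS9* and *ADAMTS12* all 4 cows at 12 h were below all 4 cows at 4 h in TPM. The share of all genes separated in this way was not counted, so the separation is not shown to be particular to these proteases. On the log2(TPM + 1) scale the median change of all genes from 4 h to 12 h was -0.21, and limma called 5194 of 14481 lower and 1304 higher. In scaled counts the 2 times overlapped for *ADAMTS5*. For *ADAMTS10* 2 of the 4 cows at 12 h were above all 4 h cows in TPM.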

How the results depend on the processing

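The rises of *ADAMTS1* and *ADAMTS5* at 4 h and the falls of *ADAMTS9* and *ADAMTS12* at 12 h were called under all 10 alternatives to the edgeR fit and with each cow left out. The number of the 8 higher at 12 h was 0 by limma with either pseudocount and 2 with the transcript length offset, and 0 to 2 with each cow left out. The number higher at 12 h than at 4 h was 0 by both limma fits and 0 to 1 with each cow left out, and the number lower (4) was 2 with the length offset, 5 by DESeq2, with RLE scaling and with either other count minimum, 6 by both limma fits and without cows 4H-6455 and 12H-6314, and 3 to 5 with each cow left out. The causes were not tested. Log2 fold changes close to 0 in the main fit changed sign. *ADAMTS2* at 4 h was 0.0073 by DESeq2, 0.0085 with RLE scaling, 0.0073 with only the 2 groups compared, 0.0017 without mitochondrially encoded genes and 0.14 without cows 4H-6455 and 12H-6314. With the length offset it was 0.13 at 12 h and 0.23 from 4 h to 12 h. *ADAMTS10* at 4 h was -0.065 on log2(TPM + 1), -0.076 on log2(TPM + 0.1), -0.027 with the length offset and -0.38 without both cows. *ADAMTS15* at 12 h was -0.22 on log2(TPM + 1), -0.29 on log2(TPM + 0.1) and -0.36 without both cows. With each cow left out, the ranges that crossed 0 were -0.15 to 0.24 (*ADAMTS2*), -0.066 to 0.39 (*ADAMTS9*) and -0.38 to 0.33 (*ADAMTS10*) at 4 h, -0.26 to 0.22 (*ADAMTS2*), -0.56 to 0.0080 (*ADAMTS4*) and -0.31 to 0.41 (*ADAMTS15*) at 12 h, and -0.26 to 0.13 (*ADAMTS2*) from 4 h to 12 h. Among the ratios, *ADAMTS1* at 12 h was 1.15 in FPKM, and the ratio of medians at 4 h was 1.13 for *ADAMTS2* and 1.01 for *ADAMTS10*. The exact test on medians gave p = 0.0571 for *ADAMTS1* and *ADAMTS5* at 4 h and *ADAMTS12* at 12 h. No paired analysis was possible because the cow tags are not shared between groups. With 31 to 84 control counts *ADAMTS5* was the most thinly covered of the 8.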
